A study of Mus musculus with 6 samples.

Results

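In white fat of mice with Yy1 deleted in adipocytes, Cyb5r1, Fastkd2 and 9130401M01Rik read higher, and Clstn1, Rpp25l, Poglut1, Rdm1 and Fmc1 read lower, than in control mice. These 8 genes were chosen by their intensities on these same arrays, because their difference between the groups held with any single array left out, and were grouped as genes of housekeeping type. They are 8 of 12393 genes with a probe set of their own on the array, and 8 of the 21 genes that passed in every such fit. Their differences between the groups are therefore a description, and no test is offered in their support. The arrays hold a single tissue, so the word housekeeping could not be checked.

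The YY1aKO group held 3 samples of white fat from mice homozygous for a floxed Yy1 gene in which the promoter of Adiponectin, a hormone of adipocytes, also drove Cre. The control group held 3 samples from mice with the same floxed alleles and no Cre. All mice were 8 weeks old, of mixed C57BL6 and 129 background, and were kept at 4 °C for 4 days before the tissue was taken. RNA of each sample was hybridised to its own 1-colour Affymetrix array. Other cells of the fat keep Yy1, effects of Cre and of the lost gene cannot be told apart, and the labels name the depot as EWAT or visceral in some fields and as subcutaneous in others. The labels do not say whether samples came from separate animals, so every p-value below measures the spread between samples. With 3 arrays a group, precision is limited by their number. In bulk tissue, fewer cells of a type and less RNA per cell cannot be told apart.

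YY1 is a zinc-finger protein that binds promoters of many broadly expressed genes, often close to where transcription starts, and can raise or lower their transcription. Its known binding motif holds the letters ATGG, usually within a longer run such as AANATGGC, where N is any base. The 8 genes were not chosen by pathway, and whether they share one was not tested. Cyb5r1 encodes a membrane enzyme of the cytochrome b5 reductase family, which passes electrons from NADH. Fastkd2 encodes an RNA-binding protein of mitochondria that takes part in assembly of the mitochondrial ribosome, and Fmc1 encodes a mitochondrial protein that in yeast helps to assemble ATP synthase. Clstn1 encodes calsyntenin 1, a membrane protein that ties vesicles to the motor kinesin. Rpp25l is a relative of the RNase P and MRP subunit gene Rpp25, Poglut1 encodes the enzyme that adds glucose to Notch receptors in the endoplasmic reticulum, and Rdm1 encodes a protein with a motif found in the recombination protein RAD52.

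RefSeq promoter windows, from 250 bases before to 50 bases after a transcript start (GRCm38.p6), were matched for 6 of the 8 genes. The stretches from 50 bases before the start to the end of each window are shown for their letters. AANATGGC or its reverse complement occurs in all 4 matched genes that read lower and in neither matched gene that read higher. The shorter ATGG or its reverse complement also occurs in the Cyb5r1 and Fastkd2 stretches. Each stretch runs 5′ to 3′ along the gene's own strand. Capitals mark a match to AANATGGC or to its reverse complement, and shorter matches are not marked. The Clstn1 stretch lies at chr4:149586418-149586517 on the plus strand, Rpp25l at chr4:41713468-41713567 on the minus strand, Poglut1 at chr16:38550207-38550306 on the minus strand and Fmc1 at chr6:38534811-38534910 on the plus strand. The Cyb5r1 stretch lies at chr1:134405731-134405830 and the Fastkd2 stretch at chr1:63730575-63730674, both on the plus strand.
Clstn1: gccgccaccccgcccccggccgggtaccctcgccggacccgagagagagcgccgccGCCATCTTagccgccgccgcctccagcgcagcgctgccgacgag
Rpp25l: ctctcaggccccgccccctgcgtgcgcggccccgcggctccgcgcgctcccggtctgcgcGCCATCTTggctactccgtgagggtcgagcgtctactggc
Poglut1: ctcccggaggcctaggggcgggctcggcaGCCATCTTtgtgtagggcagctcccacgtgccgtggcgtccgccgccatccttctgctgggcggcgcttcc
Fmc1: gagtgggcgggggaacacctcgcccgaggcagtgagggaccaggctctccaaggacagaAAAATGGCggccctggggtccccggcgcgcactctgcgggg
Cyb5r1: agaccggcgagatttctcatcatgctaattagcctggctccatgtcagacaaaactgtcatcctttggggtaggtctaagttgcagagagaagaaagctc
Fastkd2: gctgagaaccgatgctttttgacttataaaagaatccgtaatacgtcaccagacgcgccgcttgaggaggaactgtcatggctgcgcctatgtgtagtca

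In RefSeq's annotation of the same build, Cyb5r1 spans chr1:134405781-134411738 and Fastkd2 chr1:63730599-63753385, 9130401M01Rik spans chr15:58022270-58034294, Clstn1 chr4:149585111-149648899 and Rpp25l chr4:41712033-41713517. Poglut1 spans chr16:38525058-38550257, Rdm1 chr11:101627242-101636089 and Fmc1 chr6:38534861-38539449. Where in these genes the probe sets lie was not used here. The array carries 11 probe sets for them, 3 for Fastkd2, 2 for Clstn1 and 1 for each other gene.

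The targeted gene was checked first. The Yy1 probe set with the highest mean read 373, 323 and 315 in YY1aKO samples 1 to 3, against 1785, 1846 and 1596 in controls 1 to 3, so the arrays bore out the labels. Its log2 difference was -2.37, and those of the other Yy1 probe sets were -1.21, -1.025 and -0.06. The last of them was dim, at 38.5 to 40.5 in YY1aKO samples and 39.6 to 43.1 in controls, and there the groups overlapped. Control 2 stood apart from the other 5 arrays. Across the 7436 genes tested, which are not independent of each other, its Pearson correlation with them was 0.812 to 0.890. The correlation among YY1aKO arrays was 0.988 to 0.990, and that of control 1 with control 3 was 0.977. Of 9 marker genes of the epididymis, the duct in which sperm mature, 4 had a probe set of their own. Their summed intensity was 147 to 159 in YY1aKO samples, against 135, 81029 and 813 in controls 1 to 3. Of 8 adipocyte markers 6 were measured, and all 6 arrays carried them, with summed intensities of 95065 to 100628 in YY1aKO samples against 118705, 79836 and 114285 in controls 1 to 3, so that without control 2 every control lay above every YY1aKO sample. Retn, the gene of the adipocyte hormone resistin, read 3172, 8225 and 8440.0 in YY1aKO samples, against 19778, 10247 and 18733 in controls, without overlap, but did not pass. Adipoq, which encodes adiponectin, read 19768 to 21714 in YY1aKO samples and 18586 to 24774 in controls. The 5 skeletal muscle markers summed to 2914 to 3661 in YY1aKO samples and 517 to 1409 in controls, of which Acta1 passed as higher. Myl1 read 1318 to 1704 in YY1aKO samples and 316 to 1143 in controls, without overlap, while Ckm read 62.5 to 72.6 in YY1aKO samples and 60.3 to 68.5 in controls, and Myh4 and Tnnt3 were dimmer still. The 5 markers of mammary and other epithelium summed to 446 to 805 in YY1aKO samples, against 961, 12629 and 4104 in controls 1 to 3. Summed markers of macrophages, endothelium, progenitors and mesothelium overlapped between the groups, and none of their tested genes passed. For endothelium, progenitors and mesothelium the overlap came from control 2, and controls 1 and 3 lay above every YY1aKO sample. The lymphocyte markers overlapped too, and all lay under the filter. The part of other cells in the results below was not tested.

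Among the 8 genes, Cyb5r1 had the largest difference. It read 2241, 1767 and 2251 in YY1aKO samples 1 to 3, against 469.7, 395 and 420.0 in controls 1 to 3. On the log2 scale the mean was 11.02 ± 0.20 in YY1aKO samples and 8.74 ± 0.13 in controls (SD, n = 3 each), a difference of 2.28 or 4.85-fold. The lowest YY1aKO reading lay far above the highest control, with 1.91 log2 units between the groups and at most 0.35 within a group.

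Fastkd2 was represented by 3 probe sets, and all showed the same direction. The brightest read 744, 736 and 866 in YY1aKO samples, against 244.5, 264 and 235 in controls, with log2 means of 9.61 ± 0.13 in YY1aKO samples and 7.95 ± 0.09 in controls (SD, n = 3 each). The difference was 1.66 on the log2 scale, or 3.15-fold. The next probe set read 444, 487 and 507 in YY1aKO samples against 172, 197 and 185 in controls, a log2 difference of 1.38, and the third 453, 467.5 and 498 against 142, 166 and 139, a log2 difference of 1.67. The groups overlapped on none of the 3 probe sets.

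The gene 9130401M01Rik, for which no role is given here, read 1324, 1237 and 1437 in YY1aKO samples, against 509, 420.1 and 444 in controls. Its log2 mean was 10.38 ± 0.11 in YY1aKO samples and 8.83 ± 0.14 in controls (SD, n = 3 each), a difference of 1.54 or 2.92-fold. On the brightest probe set of all 3 genes that read higher, YY1aKO 3 gave the highest and YY1aKO 2 the lowest value of its group. Fmc1, which read lower, had the same order, and on the other probe sets of Fastkd2 YY1aKO 1 was lowest.

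Clstn1 was the gene in which probe sets disagreed. The brighter of its 2 probe sets read 177, 180.5 and 191 in YY1aKO samples, against 485, 430.3 and 501 in controls, with log2 means of 7.51 ± 0.06 in YY1aKO samples and 8.88 ± 0.12 in controls (SD, n = 3 each) and a difference of -1.37. The dimmer probe set read 124, 111 and 111 in YY1aKO samples against 136, 109.6 and 135 in controls, a difference of -0.13, and there the groups overlapped. Only the first of these, chosen as the brighter, shows the 2.58-fold lower level.

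Rpp25l read 156, 148 and 153 in YY1aKO samples, against 478, 452 and 406 in controls. The log2 means were 7.25 ± 0.04 in YY1aKO samples and 8.80 ± 0.12 in controls (SD, n = 3 each), a difference of -1.54, or 2.91-fold lower in YY1aKO samples. The YY1aKO readings lay closer together than those of the controls.

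Poglut1 had the tightest readings of the 8 genes. It read 165, 154 and 158 in YY1aKO samples, against 482, 461 and 465 in controls, with log2 means of 7.31 ± 0.05 in YY1aKO samples and 8.87 ± 0.03 in controls (SD, n = 3 each). The difference was -1.56, or 2.95-fold lower. The gap between the groups was 15.6 times the widest range within a group, the largest such ratio among the 8 genes, while that of 9130401M01Rik was 4.65, the smallest.

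Rdm1 read 176, 180 and 168 in YY1aKO samples, against 524, 573.5 and 566 in controls. Its log2 mean was 7.45 ± 0.05 in YY1aKO samples and 9.11 ± 0.07 in controls (SD, n = 3 each), a difference of -1.67, or 3.18-fold lower. Its gap between the groups was 11.9 times the widest range within a group. Fmc1 read 289.5, 265 and 301 in YY1aKO samples, against 1055, 878 and 946 in controls. Its log2 means were 8.15 ± 0.10 in YY1aKO samples and 9.90 ± 0.13 in controls (SD, n = 3 each), a difference of -1.75 or 3.36-fold, the largest among the 5 genes that read lower.

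**Figure D1:**
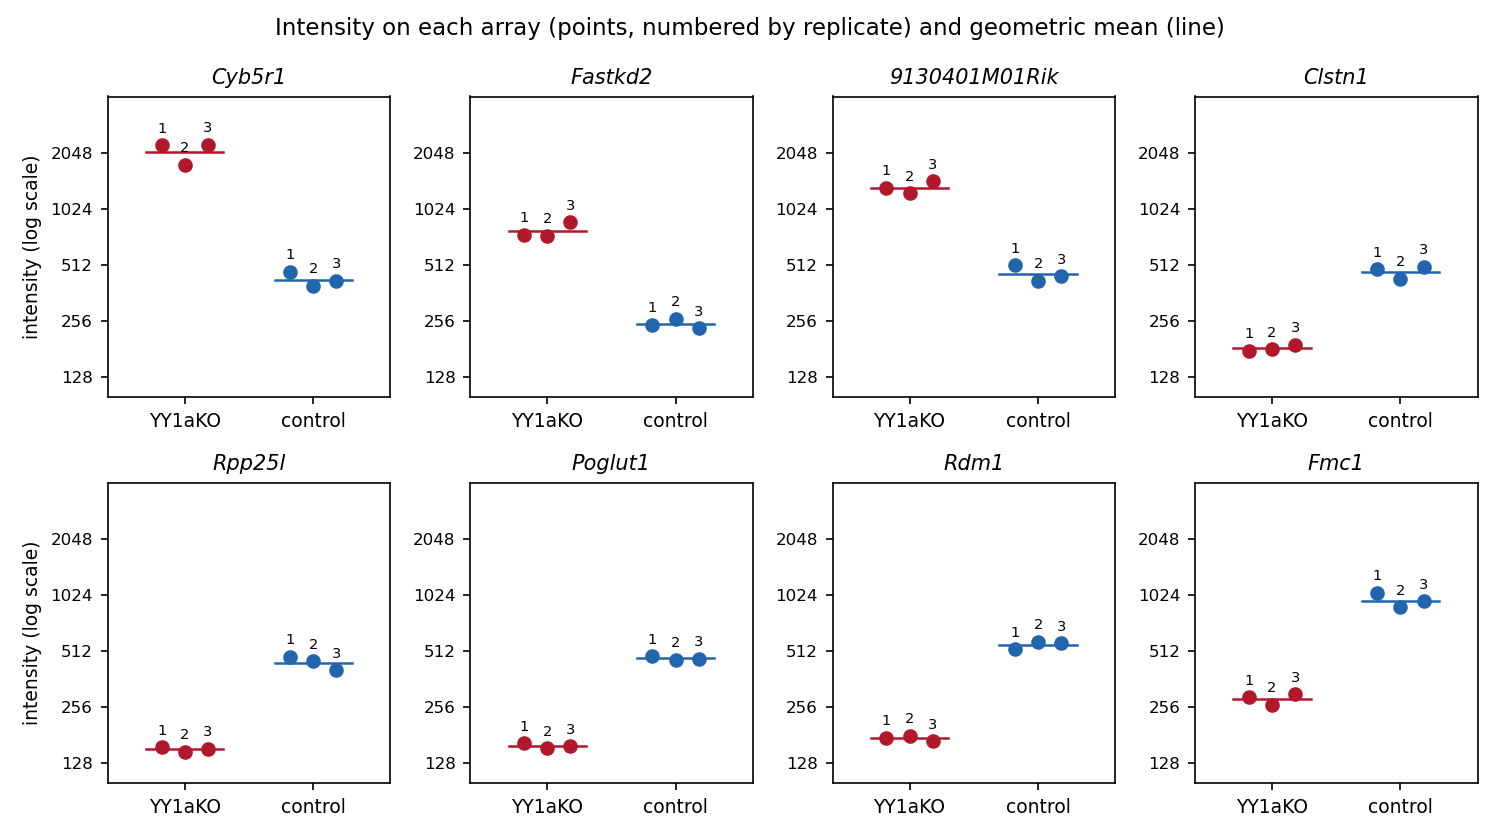
Intensity of the brightest probe set of each of the 8 genes (vertical axis, log scale) on each of the 3 YY1aKO and 3 control arrays; points are arrays numbered by replicate and lines are geometric means. No YY1aKO point of any of the 8 genes overlaps the control points, and the folds run from 2.58 for Clstn1 to 4.85 for Cyb5r1.

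All 8 genes lay over the intensity filter, which kept the 60% of genes with the highest mean, and all 8 had groups that did not overlap. Groups without overlap were found in 27.9% of the 7436 genes tested with YY1aKO higher and in 19.6% with YY1aKO lower. At a limma adjusted p under 0.05, the share of genes tested was 20.7% in all, 12.9% higher and 7.80% lower in YY1aKO samples. Passing with 6 arrays and again with each array left out held for 0.282%, which are the 21 genes the 8 were taken from. These shares are the background of the choice, which used the same contrast, and nothing is read from the members' own counts.

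The 13 other genes that passed in every fit comprised 4 higher in YY1aKO samples (Orm2, Ubd, Ccl25 and Asf1b) and 9 lower, among them Yy1 itself, Chdh, Ndrg2 and Slc2a3. The choice itself was made on limma's adjusted p, so the values at its edge only describe it. There, the largest adjusted p over the fits with an array left out was 0.043 for 9130401M01Rik and 0.040 for Clstn1, the highest of the 8 genes. The first genes outside it were Prodh at 0.0513 and Dusp8 at 0.0516. The value for Tpi1, which is not among the 8, was 0.0498.

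Leaving out an array moved none of the 8 differences far. That of Cyb5r1 ran from 2.22 to 2.39, that of Poglut1 from -1.59 to -1.54, and that of Fmc1 from -1.81 to -1.68. Without control 2 the differences were 2.22 for Cyb5r1, 1.70 for Fastkd2, 1.48 for 9130401M01Rik, -1.43 for Clstn1, -1.53 for Rpp25l, -1.58 for Poglut1, -1.64 for Rdm1 and -1.81 for Fmc1. In these genes control 2 read like the other controls: it lay 0.04 to 0.20 log2 units from the mean of controls 1 and 3, with a median of 0.15, against a median of 0.37 and an upper quartile of 0.75 over all genes tested. The choice used these same readings, so nothing is read from this closeness.

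**Figure D2:**
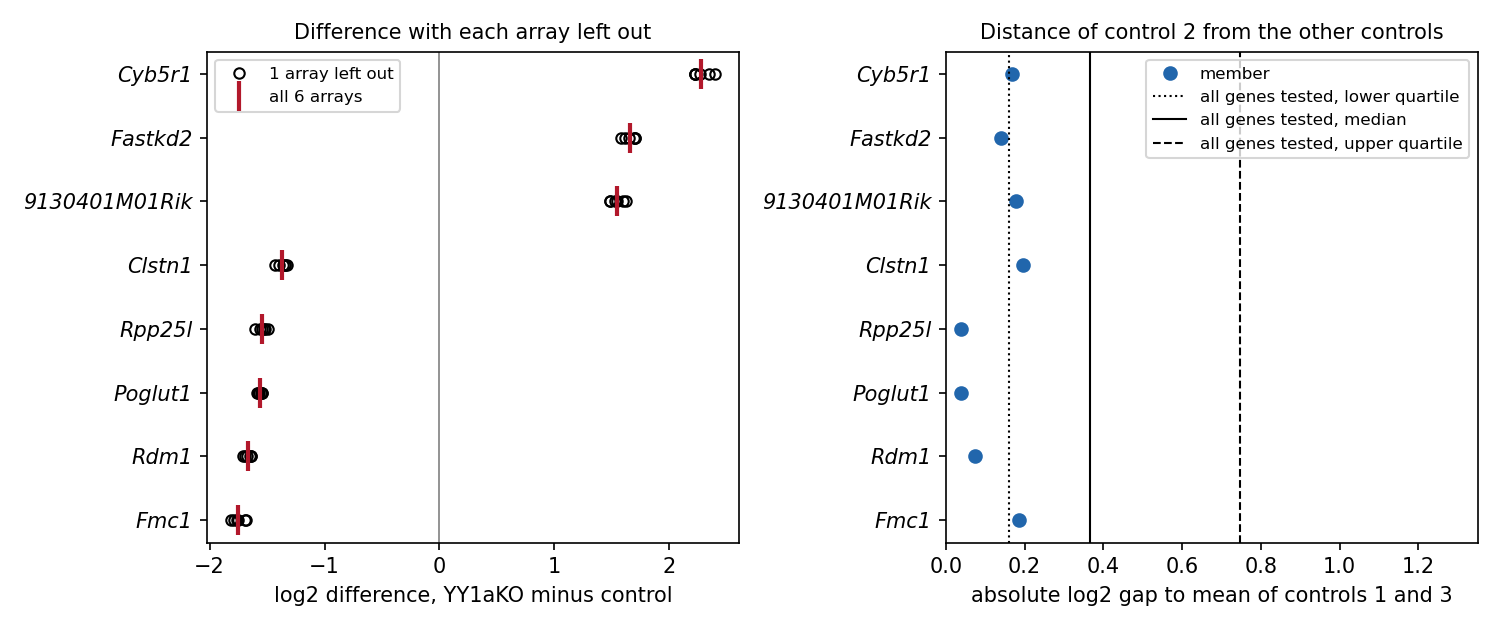
Left, the log2 difference (YY1aKO minus control) of each of the 8 genes with all 6 arrays (bar) and with each array left out (circles); right, the absolute log2 distance of control 2 from the mean of the other controls for each gene (points) beside the quartiles over all genes tested (lines). The 8 points lie at 0.04 to 0.20, all left of the median of 0.37.

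The genes were chosen by intensities and not by promoter letters, although with direct activation by YY1 as a question. Searched on both strands, AANATGGC was found in the windows of Clstn1, Rpp25l, Poglut1 and Fmc1, and in neither that of Cyb5r1 nor that of Fastkd2. Counted from the transcript start at 0, the first base of the match lay at 6 in Clstn1, 10 in Rpp25l, 9 in Fmc1 and -21 in Poglut1. The start used for Clstn1 lies inside the gene, whose annotated span begins at chr4:149585111, and that outer end was not searched. All 4 matches thus began within 25 bases of the start used, as did 38.4% of the 703 matching windows of tested genes. The longer AAGATGGCG was found in Clstn1 and Rpp25l only, the nested AAGATGGC also in Poglut1, while Fmc1 has an A at the free position. The 5 letters GCCAT, which lie inside the other motifs when read on the opposite strand, were found in 5 of the 6 windows, Fastkd2 included.

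For background, AANATGGC was held by 6.05% of all 32851 windows and by 8.93% of the 7872 windows of tested genes. The shares were 2.75% and 4.70% for AAGATGGC, 1.40% and 3.15% for AAGATGGCG, and 40.5% and 38.5% for GCCAT. The base content of the windows varied: Clstn1 had 79.7% G and C and 48 CpG pairs, Rpp25l 67.7% and 33, Fmc1 64.7% and 19, and Poglut1 53.7% and 14. Cyb5r1 had 45.7% and 5 pairs, and Fastkd2 44.3% and 14, against a median of 61.0% and 21 pairs for windows of tested genes. A match is a run of letters, not a site that YY1 was shown to bind here.

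Across the whole array the same letters were more frequent among genes that fell. Of genes with a window, 109 of 483 that were lower in YY1aKO samples held AANATGGC (22.6%), against 73 of 799 that were higher (9.14%) and 487 of 4793 that did not pass (10.2%). Turned round, 16.3% of genes with the motif were lower and 10.9% higher, while 6.92% of genes without it were lower and 13.4% higher. In windows with at least the median number of CpG pairs, the motif was held by 24.8% of lower and 8.08% of higher genes, and in windows with fewer by 19.9% and 10.9%. Without control 2 the shares were 15.5% of 1173 lower and 8.84% of 1572 higher genes. These shares are descriptions with no test, and they include the 8 genes. Most genes that fell did not hold the motif, and most genes with the motif did not pass. Of the 9 other lower genes that passed in every fit 6 had a window, and of these Chdh alone held the letters. Of the 4 higher, all with a window, 0 held them. Whether YY1 acts on the 4 promoters was not tested, since the arrays measure neither binding nor the time of the change.

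**Figure D3:**
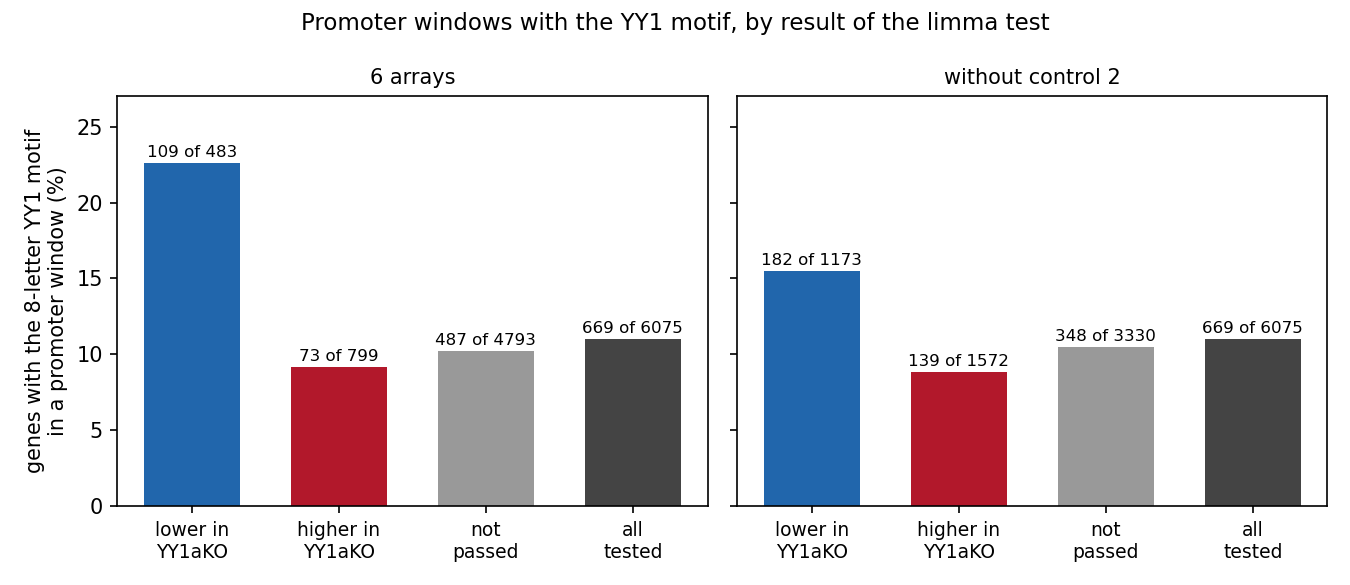
Percent of genes with the 8-letter motif in a promoter window (vertical axis) among genes lower in YY1aKO, higher in YY1aKO, not passed and all tested, with all 6 arrays (left) and without control 2 (right); counts stand above the bars. The bar of lower genes is at 22.6% with 6 arrays and at 15.5% without control 2, against 669 of all 6075 genes with a window.

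Family and pathway partners of the 8 genes were not part of the choice and were tested with limma in the same fit. Over 8 lists, 78 partners were tested, of which 7 were higher, 7 were lower and 64 did not pass, beside a background in which 12.9% of genes were higher and 7.80% lower. Their median log2 difference was 0.06, as was that of all genes tested. With control 2 left out, 17 were higher and 13 lower. The genes called over the whole array rose too, from 1538 with 6 arrays to 3353 in that fit. Among the 6075 tested genes with a promoter window, 1572 were higher and 1173 lower in it. Larger counts without control 2, here and in the lists below, therefore cannot be read as a feature of the partners. Without YY1aKO 2, and likewise without YY1aKO 3, limma called none, with 11 or 10 higher and 8 lower at an unadjusted p under 0.05. Over the whole array limma called 33 genes without YY1aKO 2 and 24 without YY1aKO 3. It called 253 without YY1aKO 1 and 394 without control 3, against 1538 with 6 arrays. The absence of calls in these fits, here and below, therefore cannot be read as a feature of the partners or neighbours. No partner passed in each of the 6 fits that leave out an array. For counts at an unadjusted p, no share of all genes tested is given here.

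Mitochondrial RNA handling, the field of Fastkd2, had 2 of 20 tested genes higher and 2 lower, with a median of 0.13, or 4 higher and 2 lower without control 2. Hsd17b10, a dehydrogenase that is also a subunit of mitochondrial RNase P, read 542, 645 and 697 in YY1aKO samples, against 2362, 1792 and 2292 in controls. It fell, with a log2 difference of -1.77 ± 0.16 (SE, n = 3 per group) and an adjusted p of 0.0064 by limma. Rpusd4, a pseudouridine synthase of the mitochondrial ribosomal RNA, also fell, with -0.995 ± 0.12 (SE; adjusted p = 0.00824). The helicase Dhx30 rose by 0.76 ± 0.09 (adjusted p = 0.00811) and the pseudouridine synthase Trub2 by 0.93 ± 0.25 (SE; adjusted p = 0.0473, or 0.0563 with quantile normalization again). The relatives of Fastkd2 differed by 0.43 for Fastk (adjusted p = 0.0591), 0.38 for Tbrg4, 0.28 for Fastkd5 and 0.03 for Fastkd1, and none passed.

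In the calsyntenin list, with 1 of 8 tested genes higher and 1 lower (3 and 1 without control 2), the relative Clstn3 went the other way from the brighter Clstn1 probe set. The dimmer Clstn1 probe set differed by -0.13, with overlapping groups. Clstn3 read 373, 406 and 648.5 in YY1aKO samples, against 169.9, 119 and 152 in controls, and rose by 1.67 ± 0.25 (SE, n = 3 per group; limma adjusted p = 0.0121). Kif5b, a kinesin heavy chain, had -0.48 ± 0.12 (adjusted p = 0.0420, or 0.276 when its probe sets were averaged). Clstn2 was under the filter, with readings of 61.8 to 76.5 in YY1aKO samples and 64.8 to 89.4 in controls.

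The RNase P and MRP subunits, to which Rpp25l is related, had 2 of 7 tested genes higher and none lower by limma, with 3 higher and 0 lower at an unadjusted p under 0.05 and a median of 0.33. The count was 5 higher without control 2, and 0 without control 3 or any YY1aKO sample, with 2 or 3 higher at an unadjusted p under 0.05 in those fits. Over the whole array, the fits without control 3 or a YY1aKO sample called 24 to 394 genes, against 1538 with 6 arrays. Rpp14 rose by 0.49 ± 0.11 (adjusted p = 0.0315) and Pop4 by 0.45 ± 0.09 (SE; adjusted p = 0.0238). Rpp25 itself lay below the filter, at 31.3 to 48.2 in YY1aKO samples and 20.8 to 47.2 in controls. No cytochrome b5 gene passed among 7 tested by limma, although 2 were higher and 2 lower at an unadjusted p under 0.05. Without control 2, Cyb5b (adjusted p = 0.00581) and Cyb5r3 (0.0303) passed as higher and Mtarc2 (0.0149) and Cyb5d1 (0.0305) as lower. With all 6 arrays Cyb5d1 came closest with -0.38 ± 0.11 (SE; adjusted p = 0.0528), followed by Cyb5b with 0.53 ± 0.17 (adjusted p = 0.0725), while Cyb5r3, the best-known reductase of the family, differed by 0.47 ± 0.17 (adjusted p = 0.107).

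Among Notch receptors and the enzymes that put sugars on them, 1 of 9 tested genes was lower and none higher by limma, with 0 higher and 1 lower also at an unadjusted p under 0.05. Notch1 read 413, 512.3 and 494 in YY1aKO samples, against 805, 1039 and 782 in controls, and fell by 0.88 ± 0.16 on the log2 scale (SE; adjusted p = 0.0173). Without control 3 or any YY1aKO sample no gene of the list passed, with 1 lower at an unadjusted p under 0.05 in each of those fits. Poglut2, a relative of Poglut1, differed by -0.16 ± 0.09 (adjusted p = 0.239). In the recombination list 2 genes were tested, of which Brca2 rose by 0.95 ± 0.10 (adjusted p = 0.00762) and Rad51d had -0.70 ± 0.24 (SE; adjusted p = 0.0883, or 0.0144 without control 2). Rad52 lay below the filter, at 38.4 to 43.2 in YY1aKO samples and 33.2 to 53.6 in controls.

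Of 9 tested genes of the ATP synthase F1 part and its assembly, Atp5a1 fell, with -0.74 ± 0.16 (SE, n = 3 per group; limma adjusted p = 0.0297), and none rose. Without control 2, Atp5b (-0.45, adjusted p = 0.0100) and Atp5c1 (-0.30, adjusted p = 0.0340) were lower as well. With any other array left out none passed by limma, with 1 or 2 lower at an unadjusted p under 0.05, and 1 higher without control 1. The assembly factors Tmem70 (0.41), Atpaf2 (0.33) and Tmem242 (0.27) did not pass. Of 16 tested genes commonly used as expression references, 1 was higher and 2 were lower. Pgk1 differed by 0.42 (adjusted p = 0.0457, or 0.0508 with quantile normalization again), Hprt by -0.38 (adjusted p = 0.0346, or 0.0533 with the same median on every array) and the transferrin receptor gene Tfrc by -0.66 (adjusted p = 0.0136). Actb (0.21), Tbp (0.03), Polr2a (-0.02) and Rplp0 (-0.09) did not pass. Farther from no difference, B2m (0.34), Tubb5 (0.29) and Sdha (-0.40, adjusted p = 0.0839, or 0.00537 without control 2) did not pass either. With control 2 left out, 2 were higher and 3 lower.

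**Figure D4:**
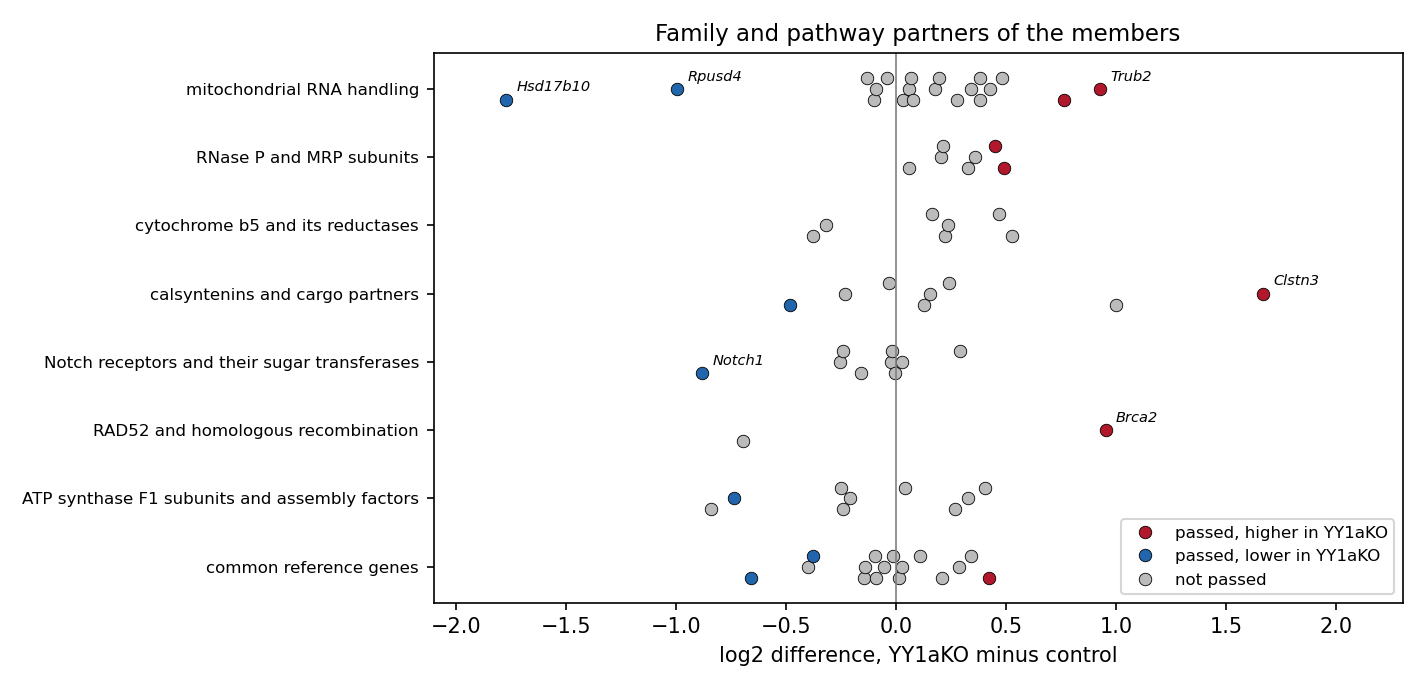
Log2 difference (horizontal axis, YY1aKO minus control) of the 78 partners tested, by list; points are genes, coloured by whether limma called them higher or lower in YY1aKO or not. Calls are 7 in each direction, with Clstn3 at 1.67 and Hsd17b10 at -1.77 the farthest from 0.

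The 8 genes lie on 6 chromosomes, with Fastkd2 and Cyb5r1 on chromosome 1 and Rpp25l and Clstn1 on chromosome 4, and 0 lie on chromosome 12, which carries Yy1. For each gene the nearest protein-coding gene with a probe set was taken on either side (GRCm38.p6), so genes without a probe set may lie between. Of these 16 neighbours 12 were tested, of which 5 were higher, 0 were lower and 7 did not pass by limma. The background at the same adjusted threshold was 12.9% higher and 7.80% lower. At an unadjusted p under 0.05, 5 neighbours were higher and 2 lower, and no share of all genes tested is given for that threshold. Without YY1aKO 1, YY1aKO 2, YY1aKO 3 or control 3 none of the neighbours passed, with 5 at an unadjusted p under 0.05 on the higher side in each fit. These fits called only 24 to 394 genes in all. Leaving out control 2 gave 6 higher and 2 lower, in a fit that called 3353 genes in all against 1538 with 6 arrays.

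Both neighbours of Cyb5r1 rose with it but by less. Adipor1, the gene of an adiponectin receptor, starts 3639 bases beyond the end of Cyb5r1 and read 2367, 2582 and 2441 in YY1aKO samples, against 1785, 2038 and 1731 in controls. Its log2 difference was 0.42 ± 0.10 (SE; limma adjusted p = 0.0403, or 0.0612 with quantile normalization again). Tmem183a, 43768 bases from Cyb5r1, differed by 0.74 ± 0.13 (adjusted p = 0.0176). Derl1, of protein export from the endoplasmic reticulum, lies 129851 bases from 9130401M01Rik on the lower-coordinate side and rose by 0.87 ± 0.14 (adjusted p = 0.0150).

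Of the tested neighbours of the 5 genes that read lower, 2 rose and none passed on the lower side. Timmdc1, which takes part in assembly of respiratory complex I and lies 2279 bases from Poglut1, read 334, 332 and 421 in YY1aKO samples, against 268, 225 and 224 in controls. It rose by 0.60 ± 0.14 (SE; adjusted p = 0.0345). Luc7l2, a splicing factor gene 11884 bases beyond Fmc1 on the same strand, rose by 0.62 ± 0.12 (adjusted p = 0.0209). Dctn3, a dynactin subunit gene 1280 bases from Rpp25l, read 2056, 2344 and 2120.2 in YY1aKO samples, against 3392, 2535 and 3065 in controls. Its difference of -0.46 ± 0.14 did not pass (SE; adjusted p = 0.0654, or 0.00654 without control 2). The other neighbours tested did not pass. Ctnnbip1, 18673 bases from Clstn1, differed by -0.47, and Zhx1, 12708 bases from 9130401M01Rik, by -0.28. Klf7, 276062 bases from Fastkd2, differed by -0.03, and Tmem39a, 8440 bases from Poglut1, by 0.28. Dhx8 and Tmem106a, 96866 and 35453 bases from Rdm1, differed by 0.26 and 0.53. Without control 2, Tmem39a differed by 0.72 (adjusted p = 0.00966) and Zhx1 by -0.29 (adjusted p = 0.0429). Pik3cd, 268 bases from Clstn1, lay below the filter and differed by 0.24 ± 0.21 (adjusted p = 0.504 with no filter). Also below the filter, Adam23, 134487 bases from Fastkd2, differed by 0.32, and Cntfr, 14941 bases from Rpp25l, by -0.21. Atp6v0a4, 410274 bases from Fmc1, was below it too and differed by -0.40.

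**Figure D5:**
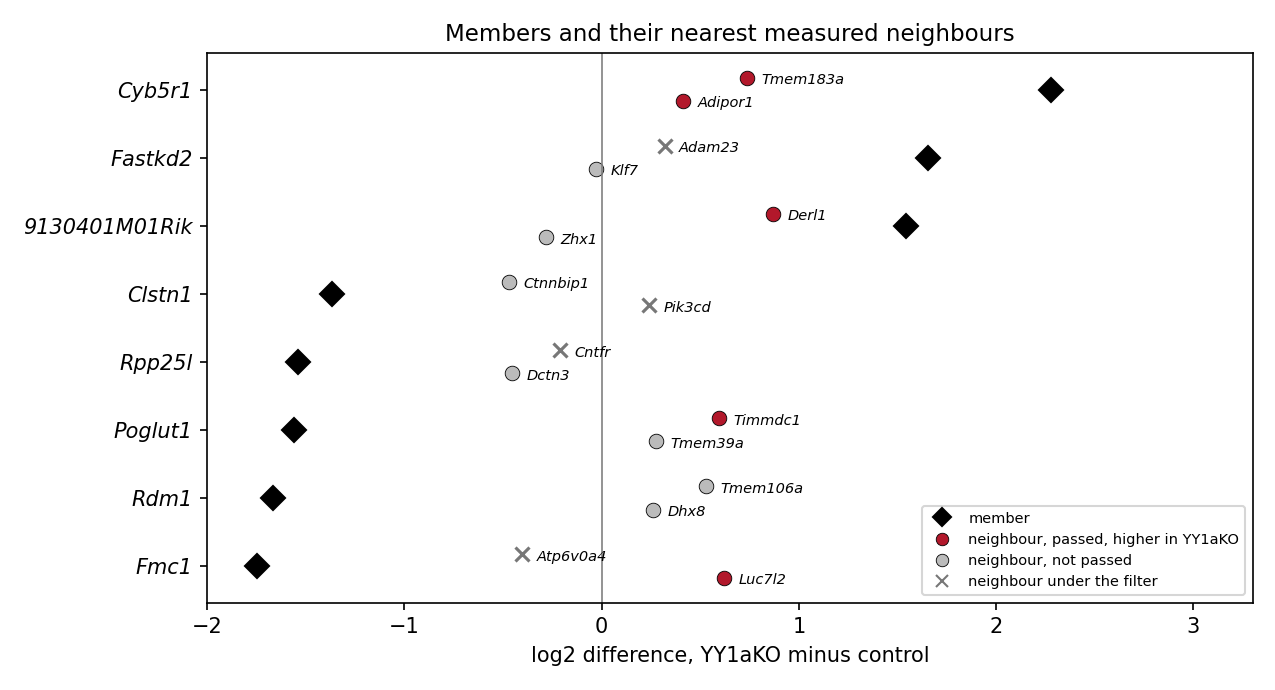
Log2 difference (horizontal axis, YY1aKO minus control) of the 8 genes (diamonds) and of their nearest measured neighbours (circles, or crosses for genes under the intensity filter). The 5 neighbours that passed lie right of 0, at 0.42 to 0.87, those of Poglut1 and Fmc1 included.

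The genes whose profile over the 6 arrays came nearest were found by the root mean square difference of log2 values centred on their mean. They are a description of likeness over arrays in 2 groups. For Cyb5r1 these were Arhgef2 (0.17 log2 units), which reads 1218, 954 and 1265 in YY1aKO samples against 334, 229 and 296 in controls, and Ccl25 (0.26). For Fastkd2 they were Ccl25 (0.12) and Rfc4 (0.13), and for 9130401M01Rik Atf3 (0.11) and Ddx59 (0.13). Among the genes that read lower, Zfand1 was among the nearest for Rpp25l (0.13), Poglut1 (0.15) and Rdm1 (0.13), with 86.2, 78.3 and 70.9 in YY1aKO samples against 230.1, 278 and 211 in controls. Tpi1 was so for Poglut1 (0.16) and Fmc1 (0.13), Gstt2 for Rpp25l (0.16) and Fmc1 (0.13), and Casd1 for Rdm1 (0.12). Clstn1 was nearest to H2ac19 and Il34 (0.14 each).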

How the data were processed

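The files hold a linear intensity for each probe set on each array, deposited by the authors after RMA, per the submitters' processing notes. The version of RMA and the step back to a linear scale are not given in the sources used here. RMA makes the arrays' distributions alike, so a shift shared by most genes is removed. The log2 of the deposited intensities was taken before any fit. Of 22690 probe sets, 64 array controls were left out, 20380 had 1 gene symbol, 691 several and 1555 none. For each gene the brightest probe set stood in, and the 60% of genes with the highest mean (7436, at least 114 on the linear scale) were tested with limma 3.58.1 in R 4.3.3 (lmFit, eBayes, Benjamini-Hochberg over all genes tested, threshold 0.05, two-sided). Differences are YY1aKO minus control. The scripts were tested on simulated data.

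The members, lists, motifs and neighbours were chosen with earlier results of these data known. Genes named are Yy1, the 8 members, each list's genes that passed (or the 2 with the smallest p where none did), the neighbours and the 2 genes nearest in profile to each member. Other list genes that did not pass, and the other genes at the edge of the choice, were added after their values were seen. Promoters are from RefSeq (GRCm38.p6). Of 118 list genes, 93 had a probe set of their own. Alternatives were another probe set rule, filter, normalization, variance model, array weights, a replicate block and each array left out. Same-numbered samples did not deviate together (correlations of -0.14 to -0.12 across genes), so numbers were not taken as pairs.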

Additional observations from a re-analysis of the deposited data

How the results depend on the processing

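The member differences kept their direction under every alternative that gave them a value. With only the brightest 40% of genes kept, Clstn1, Rpp25l, Poglut1 and Rdm1 were left out by the filter and have none. Those that moved by more than the spread between replicates were Clstn1, at -0.75 when its probe sets were averaged and -0.13 with its dimmer probe set alone, Fastkd2, at 1.38 with 1 of its other probe sets alone, and Poglut1, at -1.51 with the same median on every array. The number of genes called, 1538, became 2628 with array weights, whose estimation stopped before it converged, and 54 with a replicate block. It ran from 24 without YY1aKO 3 to 3353 without control 2 over the fits with an array left out. Partners called lower, 7, became 12 with array weights and 0 with the replicate block (9 at an unadjusted p under 0.05 in limma), and ran from 0 to 13 with an array left out. Partners called higher, 7, became 12 and 0 (12 at an unadjusted p under 0.05), and ran from 0 to 17. Neighbours called, 5, became 0 with the replicate block (5 at an unadjusted p under 0.05) and ran from 0 to 8. The block spends 2 degrees of freedom on numbers that do not pair the samples. With the longer 9-letter motif, 2 member windows held a match in place of 4. The cause of the shifts with an array left out was not tested. The files used here give no background signal, so how much of the low readings of Clstn1, Rpp25l, Poglut1 and Rdm1 in YY1aKO samples is background is not known.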
